A study of Saccharomyces cerevisiae with 6 samples.

Results

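Peptides enter Saccharomyces cerevisiae through a small set of membrane transporters. Described here are 4 genes of such transporters or their relatives, together with the repressor that controls the best studied one. The 5 genes are PTR2 (YKR093W), OPT1 (YJL212C), OPT2 (YPR194C), DAL5 (YJR152W) and CUP9 (YPL177C), out of 6696 open reading frames counted. They were matched by systematic name, and they were chosen from these measurements, with their levels in the 4 groups already known. Their own values are therefore given as a description without a test. Tests across all genes are used for other genes and for the background share of genes called.

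Ptr2 is a proton-coupled carrier of di- and tripeptides. Cup9, a homeodomain repressor, keeps PTR2 low by recruiting the Tup1-Cyc8 corepressor, and imported dipeptides bind the ubiquitin ligase Ubr1 and speed the degradation of Cup9, so that peptide uptake feeds back on its own transporter. Opt1, also named Hgt1, carries longer peptides and is the high-affinity glutathione transporter. Opt2 is its relative in the oligopeptide transporter family. Dal5 is an allantoate and ureidosuccinate permease that also takes up dipeptides, and its gene belongs to those held down by nitrogen catabolite repression, the system that keeps poor-nitrogen pathways silent while good nitrogen sources last.

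Stranded libraries of total RNA, depleted of ribosomal RNA, were made from strain BY4741 and from a derivative in which kanMX4 replaces CYC8 (BY4741 cyc8[delta]::kanMX4). Both strains grew in medium with 1% yeast extract and 2% peptone, a protein digest rich in peptides, and either 2% glucose or 2% mannose for 3 h. These 4 groups are wild type in glucose with 2 libraries, wild type in mannose with 1, the deletion in glucose with 2 and the deletion in mannose with 1. The labels do not say whether the glucose replicates are separate cultures, so the spread between them may be technical. The mannose groups have no replicate error, and their standard errors borrow the spread of the glucose pairs. Comparisons that start from the same control libraries are not independent of each other.

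The libraries held 26195734 to 44084216 counts. Levels are CPM, counts scaled to a common library size with TMM factors. In glucose CYC8 averaged 203 ± 4.97 CPM in BY4741 against 2.55 ± 0.531 CPM in the deletion (SD, n = 2 each), with 71, 124 and 180 counts left in the 3 deletion libraries. LEU2, MET17 and URA3, markers absent from BY4741, had 0 counts throughout, a floor of 0.0681 to 0.115 CPM (3 counts) for counting error alone. All 5 markers of mating type a were lower in the deletion in glucose, and the one defining STE2, the pheromone receptor gene, stood at 258 ± 4.03 against 48.4 ± 3.41 CPM (SD, n = 2). Of the 3 markers of mating type alpha, the pheromone gene MF(ALPHA)1 lay between 0.0611 and 0.352 CPM and the receptor gene STE3 between 0.264 and 3.11 CPM. SAG1, for alpha agglutinin, lay between 11.8 and 20.1 CPM. It was lower in the deletion in glucose (−0.38) and higher in mannose (0.61). STE3 was lower in the deletion in both sugars (−2.68 and −3.41), and MF(ALPHA)1 was not called in glucose. The part of these markers in the results below was not tested. The deletion library in mannose stood apart: it was the shallowest, and its 10 most abundant genes took 12.4% of the counts, against 18.0% to 20.5% in the others. Its part in the values given for that library was not tested. In bulk RNA a lower level per cell and fewer expressing cells cannot be told apart.

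The stretches upstream of PTR2, DAL5 and CUP9 are shown because these are the 3 genes of the set that stood higher in the deletion. Each is the RefSeq R64 sequence (the sacCer3 build) from 600 to 301 bases before the start codon, read 5′ to 3′ on the strand of its gene: chrXI:615130-615429 on the plus strand for PTR2, chrX:719066-719365 on the plus strand for DAL5 and chrXVI:214263-214562 on the minus strand for CUP9. Capitals mark TGACA, the core bound by homeodomains of the Cup9 kind, and GATAAG, the core bound by the GATA factors of nitrogen catabolite repression, on either strand (TGTCA and CTTATC when read backwards).
PTR2: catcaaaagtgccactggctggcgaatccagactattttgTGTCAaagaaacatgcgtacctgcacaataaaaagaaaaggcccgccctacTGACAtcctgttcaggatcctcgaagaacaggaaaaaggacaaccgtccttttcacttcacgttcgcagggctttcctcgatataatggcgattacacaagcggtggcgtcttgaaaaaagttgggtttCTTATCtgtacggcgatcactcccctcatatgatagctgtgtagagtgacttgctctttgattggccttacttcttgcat
DAL5: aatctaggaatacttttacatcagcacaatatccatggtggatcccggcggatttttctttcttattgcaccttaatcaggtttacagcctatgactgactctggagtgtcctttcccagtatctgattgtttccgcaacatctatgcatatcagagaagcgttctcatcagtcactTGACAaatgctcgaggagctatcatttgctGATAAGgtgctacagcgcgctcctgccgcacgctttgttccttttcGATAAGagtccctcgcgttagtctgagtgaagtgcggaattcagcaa
CUP9: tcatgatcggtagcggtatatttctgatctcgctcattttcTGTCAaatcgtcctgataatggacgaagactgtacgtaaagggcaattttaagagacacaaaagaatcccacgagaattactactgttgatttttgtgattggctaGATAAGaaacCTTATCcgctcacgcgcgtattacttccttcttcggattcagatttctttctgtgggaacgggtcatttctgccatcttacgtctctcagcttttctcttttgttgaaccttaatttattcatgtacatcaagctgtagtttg
The 2 motifs do not overlap in these windows. Over the whole 600 bases before the start codon, PTR2 and DAL5 held 2 TGACA matches each and the other 3 genes 1 each. Of the 5985 upstream windows of this length in the nuclear genome, 69.0% held at least 1 and 32.7% at least 2, so the count in these genes is a common one. In PTR2 the matches began 560 and 509 bases before the start codon, with a GATAAG match at 380. DAL5 held 3 GATAAG matches, at 393, 347 and 171 bases, which 0.702% of windows reached. OPT1, OPT2 and CUP9 held 2 each, a count of at least 2 being found in 4.93% of windows, and those of CUP9 lay side by side at 453 and 443 bases. A match is a description of the letters and not a mapped binding site.

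All 5 genes have 1 coding exon, and none overlaps another open reading frame of the reference. No coding sequence in the genome matched a member beyond CUP9 and its paralog TOS8, with 70.3% identity over 172 of 921 bases. Per kilobase of coding sequence (CPM per kb), CUP9, PTR2 and OPT1 were the higher expressed in wild type in glucose, at 76.0 ± 5.24, 68.5 ± 1.77 and 65.3 ± 3.19 (SD, n = 2), above 80.6%, 78.6% and 77.9% of 5846 genes. The libraries of CUP9, at 72.3 and 79.7, lay above those of PTR2, at 67.2 and 69.8, while PTR2 and OPT1, at 67.5 and 63.0, overlapped. DAL5 and OPT2, at 4.16 ± 0.125 and 4.09 ± 0.153 CPM per kb (SD, n = 2), overlapped each other, above 10.1% and 9.96% of genes.

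**Figure D1:**
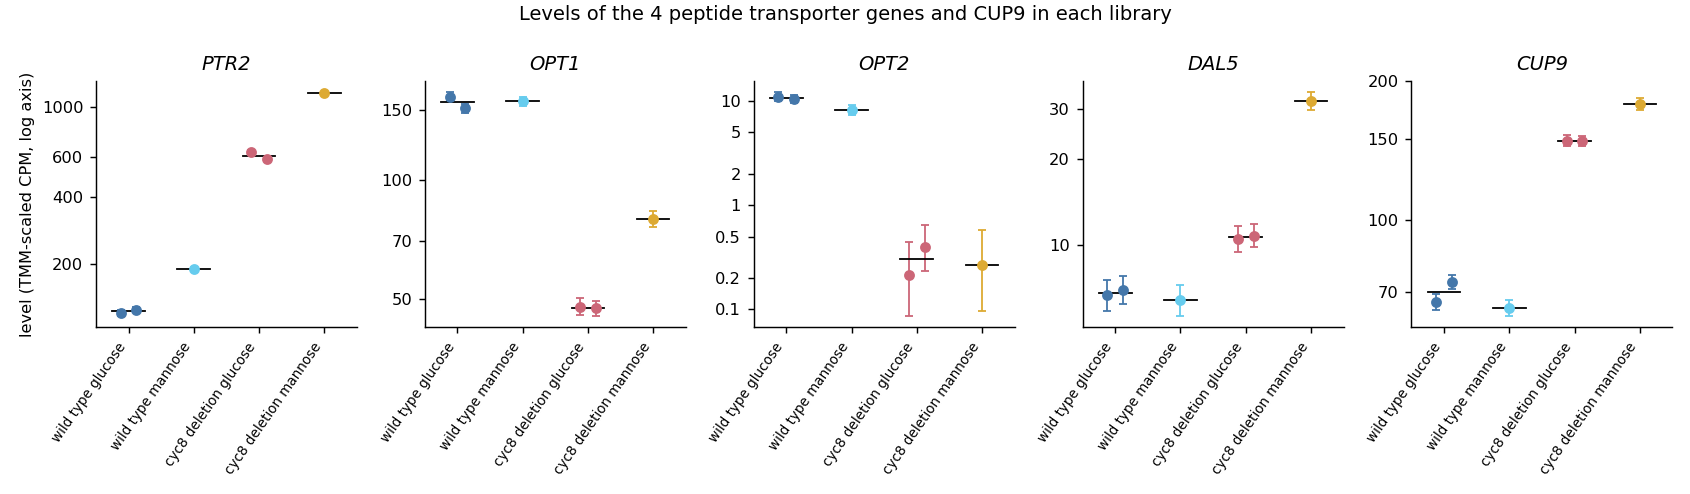
Level of each gene in each library (TMM-scaled CPM, log axis, a separate scale for each gene). Points are libraries, whiskers are 95% Poisson intervals for counting error only, and black bars are group means. PTR2, DAL5 and CUP9 stood higher in the deletion libraries and OPT1 and OPT2 lower, and only PTR2 had its wild-type mannose library above both wild-type glucose libraries.

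PTR2 (chromosome XI, 615730 to 617535, plus strand, 1806 coding bases) gave 4565 and 5664 counts in the wild-type glucose libraries, 7360 in wild type in mannose, 20696 and 24830 in the deletion in glucose and 26111 in the deletion in mannose. Scaled for depth, the level was 121 and 126 CPM, then 191, then 633 and 585, and finally 1149 CPM in the same order. The 4 groups did not overlap, and each stood above the one before it in that order. In glucose the deletion mean of 609 ± 33.7 CPM was 4.92-fold above the wild-type mean of 124 ± 3.20 CPM (SD, n = 2), a log2 fold change of 2.30 ± 0.08 (standard error, as in all changes that follow). In mannose the deletion was 6.03-fold above wild type (2.59 ± 0.12). Mannose against glucose gave 1.54-fold in wild type (0.62 ± 0.10) and 1.89-fold in the deletion (0.92 ± 0.09), the latter 0.59 once trends on GC content and length were removed. The difference of these mannose changes was 0.29 ± 0.14 on the log2 scale, but 0.05 with upper-quartile scaling and 0.09 without the GC and length trends.

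CUP9 (chromosome XVI, 213042 to 213962, minus strand, 921 coding bases) encodes the repressor of PTR2, and its own RNA was higher in the same deletion libraries. The level was 66.6 and 73.4 CPM in wild type in glucose, 64.5 in wild type in mannose, 149 and 149 in the deletion in glucose and 179 in the deletion in mannose. The deletion libraries lay above every wild-type library, and the wild-type libraries of the 2 sugars lay close together. The change in the deletion was 2.12-fold in glucose (1.08 ± 0.07) and 2.77-fold in mannose (1.47 ± 0.11). Mannose gave −0.12 ± 0.09 in wild type and 0.26 ± 0.09 in the deletion, and the latter was 0.01 with upper-quartile scaling and 0.10 without the GC and length trends. So the repressor's RNA and that of its target stood higher together in the deletion, where the corepressor subunit was missing. Per kilobase, PTR2 over CUP9 was 0.930 and 0.875 in wild type in glucose, 1.51 in wild type in mannose, 2.17 and 2.01 in the deletion in glucose and 3.28 in the deletion in mannose. The RNA level gives no measure of the Cup9 protein, whose stability is what imported dipeptides are known to act on.

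OPT1 (chromosome X, 33850 to 36249, minus strand, 2400 coding bases) stood lower in the deletion, opposite to PTR2. Its level was 162 and 151 CPM in wild type in glucose, 158 in wild type in mannose, 47.7 and 47.2 in the deletion in glucose and 79.4 in the deletion in mannose. All 3 deletion libraries lay below all 3 wild-type libraries, and the wild-type mannose library lay between the 2 glucose ones. The deletion mean of 47.5 ± 0.341 CPM was 3.30-fold below the wild-type mean of 157 ± 7.64 CPM in glucose (SD, n = 2; −1.72 ± 0.08), and in mannose the deletion was 1.98-fold below (−0.99 ± 0.11, or −1.49 without the GC and length trends). Mannose gave 0.01 ± 0.09 in wild type, a value whose sign turned in several alternatives. In the deletion it gave 1.67-fold (0.74 ± 0.09), or 0.35 without those trends.

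OPT2 (chromosome XVI, 924304 to 926937, minus strand, 2634 coding bases) was nearly silent in the deletion. It gave 416 and 472 counts in the wild-type glucose libraries and 318 in the mannose one, but 7 and 17 in the deletion in glucose and 6 in the deletion in mannose. These are 11.1, 10.5 and 8.23 CPM in wild type, and 0.214, 0.400 and 0.264 CPM in the deletion, where the counting intervals of the 3 libraries overlapped (95% Poisson, 0.0860 to 0.441, 0.233 to 0.641 and 0.0969 to 0.574 CPM). The deletion was 33.5-fold below wild type in glucose (−5.06 ± 0.23) and 30.8-fold below in mannose (−4.95 ± 0.40). At so few counts a mannose difference within the deletion was not detectable (−0.27 ± 0.68, and 0.24 without deletion glucose replicate 2). In wild type mannose gave −0.39 ± 0.16.

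DAL5 (chromosome X, 719666 to 721297, plus strand, 1632 coding bases) showed its largest level where the deletion and mannose came together. It gave 250 and 312 counts in the wild-type glucose libraries, 247 in wild type in mannose, 344 and 458 in the deletion in glucose and 729 in the deletion in mannose. The matching levels were 6.65 and 6.94, then 6.39, then 10.5 and 10.8, and finally 32.1 CPM. The wild-type libraries of both sugars lay within counting error of each other (6.39 CPM in mannose, 95% Poisson interval 5.62 to 7.24), and the deletion libraries lay above them. In glucose the deletion was 1.57-fold above wild type (0.65 ± 0.12), and in mannose 5.01-fold (2.33 ± 0.17). Mannose gave −0.09 ± 0.16 in wild type and 3.01-fold in the deletion (1.59 ± 0.13), a difference of 1.68 ± 0.21 on the log2 scale.

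**Figure D2:**
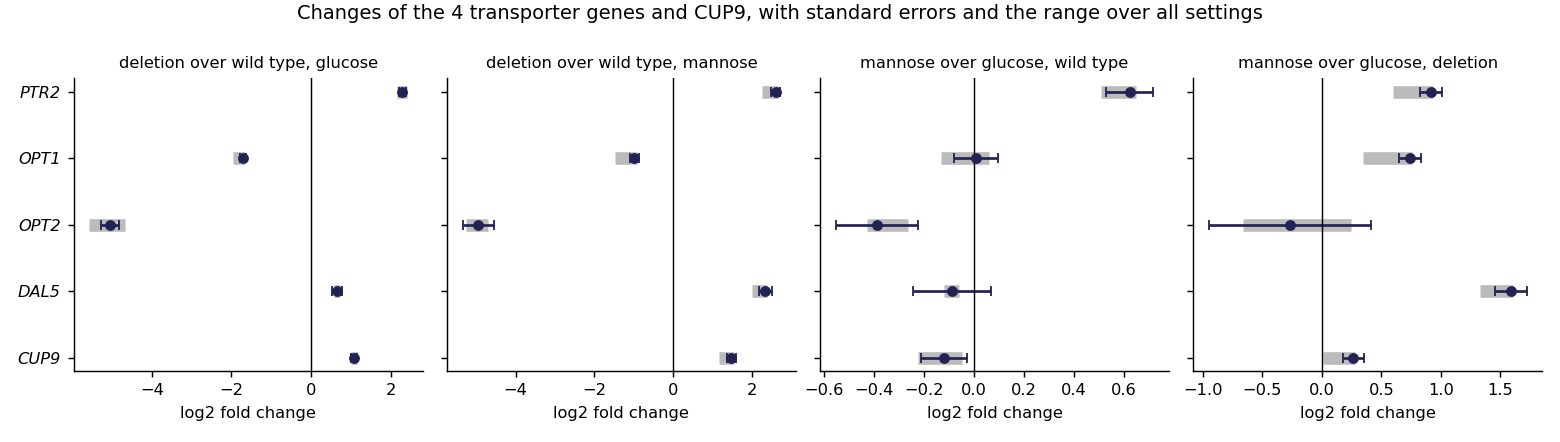
Log2 fold change of each gene in 4 comparisons, 1 panel each with its own axis. Points are the reported values with standard errors, and grey bars span the values under all processing alternatives; the deletion changes keep their sign throughout, while the mannose changes of OPT1 in wild type and OPT2 in the deletion straddle 0.

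The background against which these values stand is high, since many genes differed between the groups. At an adjusted p under 0.05 (the quasi-likelihood test of edgeR, Benjamini-Hochberg adjusted over 6146 genes), 67.9% of genes were called in the deletion in glucose, 30.1% higher and 37.8% lower, and all 5 genes of the set were among them. In the deletion in mannose 79.4% were called, 38.3% higher and 41.1% lower, again with all 5. The mannose change in wild type called 37.4%, 20.5% higher and 16.9% lower, and 1 of the 5, PTR2. In the deletion it called 77.2%, 37.6% higher and 39.7% lower, and 4 of the 5, all higher. The difference between the mannose changes called 64.2%, 29.7% higher and 34.4% lower, and OPT1, DAL5 and CUP9, all higher. Since the genes were chosen with these changes known, nothing is read from the counts of the 5.

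Adding the 4 transporters per kilobase shows how the composition of the set differed between strains. The sum was 143 and 141 CPM per kb in wild type in glucose, 178 in wild type in mannose, 377 and 350 in the deletion in glucose and 689 in the deletion in mannose. PTR2 made up 47.0% and 49.5% of it in the wild-type glucose libraries and 59.2% in the mannose one, but 93.0%, 92.5% and 92.3% in the deletion libraries. OPT1 went the other way, at 47.2%, 44.7% and 36.8% in wild type and 5.28%, 5.62% and 4.80% in the deletion. OPT2 held 1.75% to 2.94% of the sum in wild type and 0.0145% to 0.0434% in the deletion. DAL5 held 1.71% to 3.02% in the 6 libraries. The ratio of PTR2 to OPT1 RNA was thus 0.996 to 1.61 in the wild-type libraries and 16.5 to 19.2 in the deletion libraries.

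**Figure D3:**
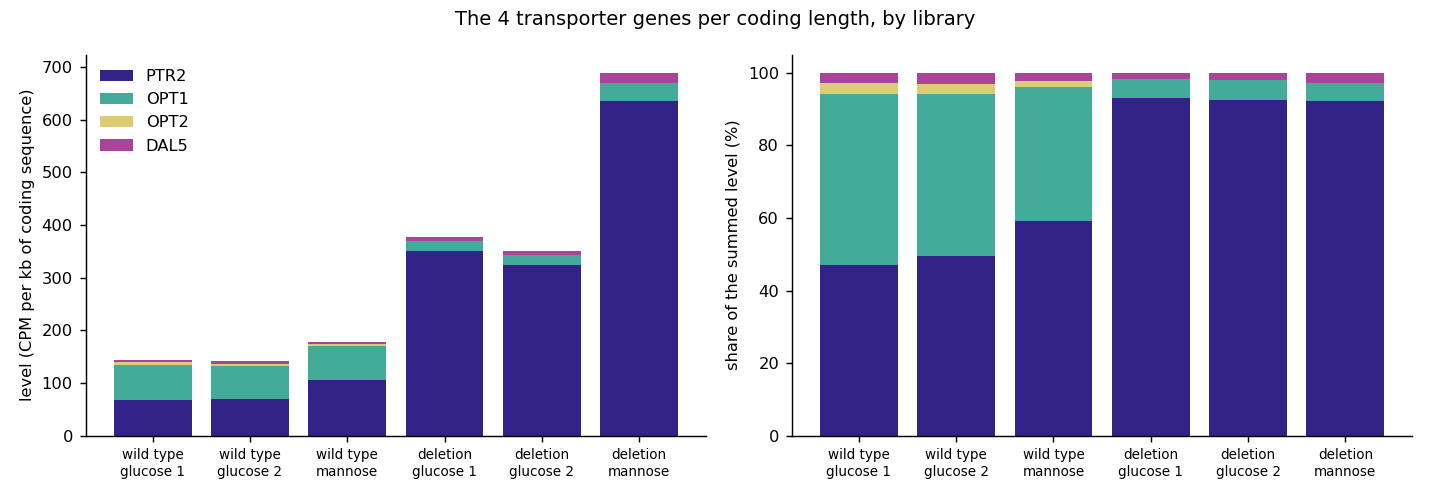
Stacked level of the 4 transporter genes per kilobase of coding sequence (left, CPM per kb) and each gene's share of their sum (right, percent), 1 bar per library. The wild-type bars are split mainly between PTR2 and OPT1, and PTR2 fills over 92% of the 3 deletion bars.

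The genes around Cup9 were looked at next, as lists chosen with earlier results of these data known. Ubr1, the ligase of Cup9, belongs to the N-degron pathway, and not every gene of that pathway need act on Cup9. Of 5 genes of the pathway 0 rose and 1 fell in the deletion in glucose, where 30.1% of all genes tested were called higher and 37.8% lower. The 5 genes had a median of 0.01 against −0.08 over all genes tested, or −0.06 against −0.15 with upper-quartile scaling. Without GC and length trends 2 rose and 2 fell, with a median of 0.19. UBR1, the ligase, averaged 221 ± 11.9 CPM without the deletion and 231 ± 7.01 CPM with it, in glucose (SD, n = 2; 0.07 ± 0.07, not called). ATE1, the arginyl transferase of the pathway, was the gene that fell (−0.30 ± 0.11). In mannose the change in the deletion was 0.39 ± 0.11 for UBR1 and 0.31 ± 0.10 for UFD4. It was −1.01 ± 0.17 for ATE1, −0.67 ± 0.14 for RAD6 and −0.07 ± 0.15 for NTA1. TUP1, the other subunit of the corepressor, fell by 0.51 on the log2 scale (standard error 0.08) in glucose. TOS8, the paralog of CUP9, rose from 4.61 ± 0.172 to 20.5 ± 1.86 CPM in glucose (SD, n = 2; 2.15 ± 0.12) and stood at 5.41 and 37.7 CPM in wild type and the deletion in mannose. In glucose the log2 change of TOS8 was thus 2.15 and that of CUP9 1.08.

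Besides Cup9, PTR2 answers to external amino acids through the SPS sensor (Ssy1, Ptr3 and Ssy5), which activates Stp1 and Stp2. Of 10 genes of SPS sensing, 4 rose and 2 fell in the deletion in glucose, where 67.9% of all genes tested were called. The 10 genes had a median of 0.06, or −0.02 with upper-quartile scaling. SSY1 (0.41 ± 0.09), PTR3 (0.39 ± 0.08) and STP2 (0.47 ± 0.08) rose, while STP1 was not called (−0.02 ± 0.08) and DAL81, their coactivator, fell (−0.40 ± 0.08). In glucose most amino acid permeases under the same control went opposite to PTR2. Of 7 such permeases 0 rose and 6 fell in the deletion in glucose, with a median of −1.99. Of all genes tested 37.8% were called lower there. AGP1, the broad-range permease, fell from 65.7 ± 1.67 to 11.3 ± 0.456 CPM (SD, n = 2; −2.54 ± 0.09). DIP5, the glutamate and aspartate permease, fell from 78.0 ± 3.11 to 3.47 ± 1.32 CPM (SD, n = 2; −4.45 ± 0.11), and stood at 91.1 CPM in the deletion in mannose. GNP1, for glutamine, was not called (−0.13 ± 0.07). In glucose PTR2 thus stood 4.92-fold higher in the deletion libraries, in which most of these permeases were lower. In mannose the changes of the 7 permeases in the deletion had a median of −1.26. They ran from −2.19 to 0.71, the latter for DIP5.

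DAL5 was set beside 14 other targets of nitrogen catabolite repression. In the deletion in glucose 5 rose and 3 fell, where 30.1% of all genes tested were called higher and 37.8% lower. The median of the 14 was 0.07, which turned to −0.01 with upper-quartile scaling and −0.03 without GC and length trends. In the deletion, the mannose changes of the 14 had a median of 1.07 (0.61 without those trends) against −0.04 over all genes. They ran from −1.51 to 3.19. In wild type the mannose changes had a median of 0.15, or −0.02 without those trends, and ran from −1.11 to 1.15. DAL2, for allantoicase in the same pathway, stood at 4.23 and 4.89 CPM in wild type in glucose, 5.93 in wild type in mannose, 3.91 and 4.48 in the deletion in glucose and 38.6 in the deletion in mannose. Like DAL5 it was highest in the deletion in mannose, where its mannose change was 3.19 ± 0.15. UGA4, the permease for 4-aminobutyrate, gave 2.61 ± 0.18 there. Other DAL genes of the list did not follow DAL5 and DAL2. The same mannose change was −0.96 for DAL1, −0.00055 for DAL3, 0.28 for DAL4 and 0.15 for DAL7, and it was −1.51 for DCG1. PUT4, the proline permease, differed mainly by strain, rising in glucose from 3.25 ± 0.0858 CPM to 247 ± 21.3 CPM with the deletion (SD, n = 2; 6.25 ± 0.11). GAP1, the general amino acid permease, rose by 2.29 ± 0.08 in the deletion in glucose. Not all targets did so: MEP3, an ammonium permease, fell by 1.93 (standard error 0.09) and DUR1,2, for urea breakdown, by 1.69 (0.08). For mannose in the deletion MEP3 gave 1.98 and DUR1,2 0.80. The same change was 1.75 for MEP1, 1.64 for PUT4, 1.17 for DUR3, 1.11 for MEP2 and 1.03 for GAP1.

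Among 6 regulators of the system GAT1, an activator, rose in the deletion in glucose (0.68 ± 0.09), URE2 and DAL82 fell, and 3 were not called. There 67.9% of all genes tested were called. DAL80, a repressor and itself a target, stood at 0.306 to 0.550 CPM in the 5 other libraries and at 2.73 CPM in the deletion in mannose (mannose change 2.71 ± 0.40).

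**Figure D4:**
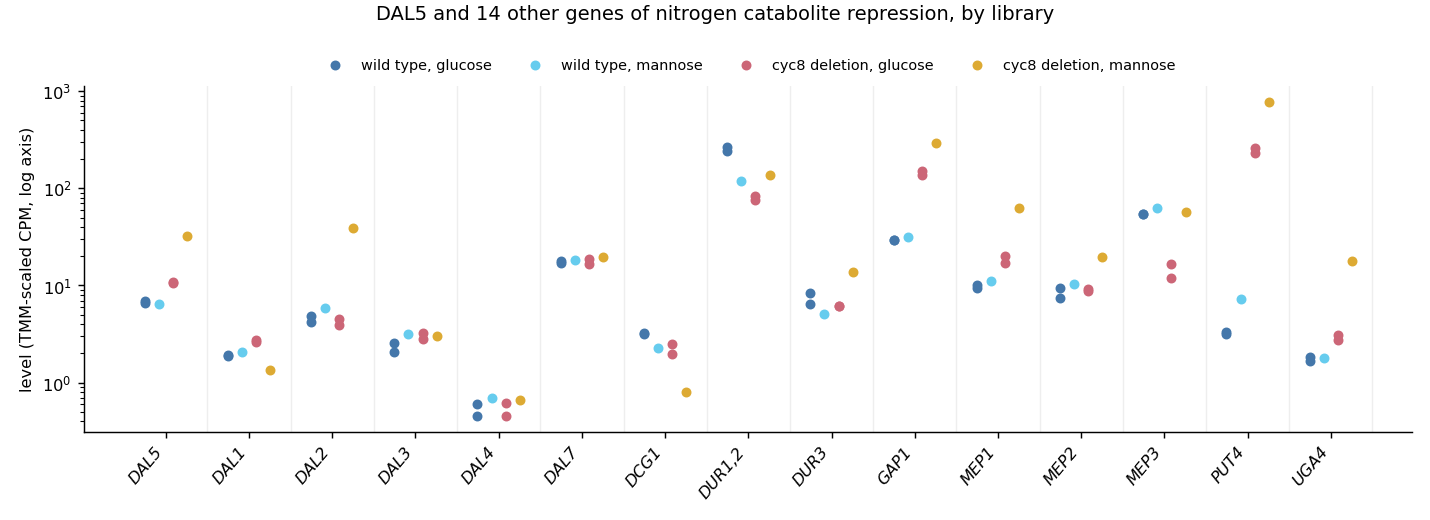
Level of DAL5 and 14 other targets of nitrogen catabolite repression in each library (TMM-scaled CPM, log axis). Colours mark the groups and each point is 1 library. DAL5, DAL2 and UGA4 each have their own highest level in the deletion mannose library, at 32.1, 38.6 and 17.9 CPM. The same holds for PUT4, GAP1, MEP1, MEP2, DUR3 and DAL7, but not for the other targets shown.

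The other transporters of the DAL5 family did not share 1 direction. Of 7 relatives 2 rose and 2 fell in the deletion in glucose, with a median of 0.25. Of all genes tested 30.1% were called higher there and 37.8% lower. YCT1, a cysteine transporter, rose from 11.1 ± 0.412 to 96.7 ± 7.05 CPM (SD, n = 2; 3.12 ± 0.09), and it reached 553 CPM in the deletion mannose library. SEO1, a putative permease, was not called in glucose (0.25 ± 0.24) but gave 2.80 ± 0.22 for mannose in the deletion, next to 1.59 for DAL5. TNA1, for nicotinic acid, fell (−0.61 ± 0.07), and VHT1, for biotin, rose (0.36 ± 0.08).

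OPT1 was set beside 9 genes of glutathione synthesis, transport and breakdown, of which 4 rose and 3 fell in the deletion in glucose, with a median of 0.10. Of all genes tested 30.1% were called higher there and 37.8% lower. GSH1, for the first step of synthesis, fell in glucose (−0.61 ± 0.08). In mannose GSH1 stood higher in the deletion (0.65), while OPT1 stood lower (−0.99). YCF1, a vacuolar glutathione conjugate pump, also fell in glucose (−0.58 ± 0.07). ECM38, which splits glutathione, rose (0.96 ± 0.09). GEX1 and GEX2, glutathione exchangers, rose by 2.62 ± 0.17 and 2.76 ± 0.14, with the reservation that they are near-identical copies. Of 10 genes of sulfur regulation and uptake 6 rose and 3 fell in glucose, beside the same shares of all genes. The 10 genes had a median of 0.37. Once GC and length trends were removed 4 rose and 4 fell, with a median of −0.01. The sulfate permease genes SUL1 (4.39 ± 0.20) and SUL2 (3.22 ± 0.10) rose, while MUP1, the methionine permease, fell (−0.18 ± 0.07), so that OPT1 and SUL1 stood on opposite sides.

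Peptidase genes were set beside PTR2, and a link between them and peptide uptake was not tested. All 7 rose in the deletion in glucose, where 30.1% of all genes tested were called higher. Their median was 0.78, and 6 of them rose when GC and length trends were removed. LAP4, a vacuolar aminopeptidase, rose from 45.0 ± 1.14 to 181 ± 9.32 CPM (SD, n = 2; 2.01 ± 0.08). In the deletion the mannose changes of the 7 had a median of 0.76 against −0.04 over all genes. They ran from −0.58 ± 0.09 for AAP1 to 1.35 ± 0.09 for APE2. In wild type, where PTR2 was 1.54-fold higher in mannose, the median of the 7 was 0.18 against 0.02 over all genes. The largest was LAP4, at 0.93 ± 0.09.

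The neighbours of the 5 genes on their chromosomes, 2 on each side, were compared in glucose. RPL40B, a ribosomal protein gene 460 bases from PTR2, fell in the deletion in glucose (−0.91 ± 0.08), and SRP40 on the other side was not called (−0.03 ± 0.07). Beyond them SRL3 rose with PTR2 (1.60 ± 0.12) and MLP1 was not called (0.07 ± 0.07). OPT1 lay between YJL213W, 691 bases away, which rose (3.02 ± 0.10), and PEX2, 669 bases away, which fell (−0.27 ± 0.09), with CBP1 beyond it not called (−0.08 ± 0.09). HXT8, the hexose transporter gene beyond YJL213W, rose (7.11 ± 0.20), but genes of its family share sequence and its count is uncertain. AQY1, an aquaporin gene 1526 bases from the nearly silent OPT2, rose from 0.622 ± 0.0614 to 39.3 ± 2.99 CPM (SD, n = 2; 5.99 ± 0.15), and YPR196W rose (1.12 ± 0.12), while HPA2 and YPR195C were not called. Around DAL5, DAN4 (2.06 ± 0.08) and YJR154W (1.14 ± 0.16) rose, PGU1, at 4 to 19 counts per library, fell (−1.67 ± 0.62), and YJR151W-A had 0 counts in each library. CBC2, 257 bases from CUP9, fell (−0.61 ± 0.09), and TRE1 on the other side rose (0.65 ± 0.07). PPQ1 beyond CBC2 rose (0.31 ± 0.08), and SPT14 beyond TRE1 was not called (0.12 ± 0.10).

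Other genes were ranked by how closely their level followed each member over the 4 group means. The measure was the root mean square difference of log2 levels centred on their own mean, among genes with at least 10 CPM on average (4883 genes, or 4884 for OPT2). DAL5 had the closest followers: SND1, of the SND targeting pathway to the endoplasmic reticulum, at 0.0433, ECM22, a regulator of sterol genes, at 0.0613 and ICT1, a lysophosphatidic acid acyltransferase, at 0.0647. PTR2 was followed by ATG34 (0.101), a receptor of selective autophagy, TMA17 (0.106), a proteasome assembly chaperone, and WTM1 (0.111), a transcriptional modulator. CUP9 was followed by MET6 (0.0904), the methionine synthase, ATG45 (0.0961) and ARG5,6 (0.0996), of arginine synthesis. The nearest to OPT1 were ALD5 (0.172), FLR1 (0.177) and SSU1 (0.178), an aldehyde dehydrogenase, a drug exporter and a sulfite pump. OPT2 had no close follower among these genes, the nearest being PHO84 (0.435), the phosphate transporter, BAR1 (0.529), the alpha factor protease of type a cells, and FRE7 (0.694), a metalloreductase. OPT2 itself lay below the limit of 10 CPM, so genes of its own level were not searched. With 4 means a small difference describes these libraries alone.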

How the data were processed

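Per library, the authors deposited raw counts for each open reading frame, beside a length that matched codons minus 10 in 5969 of 6007 reference (R64) entries. In the submitters' processing notes stand TopHat2 2.0.9, Bowtie2 2.3.4.2, CASAVA 1.8 and sacCer3, without roles. Counter, annotation and strand setting: not given in the sources used here.

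An edgeR 4.0.16 fit (R 4.3.3) took 1 mean for each of the 4 groups, TMM factors and default filterByExpr, which left out 550 and kept 6146. Genes were called by the quasi-likelihood F test under 0.05 after Benjamini-Hochberg adjustment over all kept genes. Only the glucose pairs give residual degrees of freedom (2). The prior added 86.75, and the common coefficient of variation was 5.545%. Each standard error divides the size of the log2 change by the root of F. Levels per kb use the reference coding length, and pattern likeness used log2 of CPM plus 0.1. Poisson intervals (95%) and the floor of 3 counts cover counting error only. BLAST 2.17.0 searched for copies.

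On simulated data, 50 genes per size, genes changed 1.25-fold were recovered at 60% with 2 against 2 libraries, 28% with 1 against 2 and 20% with 1 against 1. For 2-fold these shares were 100%, 98% and 98%. False calls numbered 6 among 185, 5 among 162 and 5 among 151. Simulated mannose libraries carried the fitted spread. Every other gene was simulated without a change, whereas 67.9% of genes were called in the deletion in glucose. The simulated false calls therefore give no error rate for these data.

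The 5 genes, the lists and the tests were chosen with earlier results of these data known. The text names the 5 genes, label checks, any gene of a list of up to 10, the 2 neighbours on each side and the 3 closest patterns. For longer lists the rule was the 3 largest changes per comparison, but all 14 targets of nitrogen catabolite repression are named. Alternatives were other scaling, DESeq2 1.42.0, no filter, GC and length trends removed, each glucose library left out, a replicate block, only the glucose libraries and, chosen after seeing the data, a fixed coefficient of variation.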

Additional observations from a re-analysis of the deposited data

Results flagged for a closer look

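The mannose change in the deletion minus that in wild type stood out for OPT1, at 0.73 on the log2 scale, for DAL5, at 1.68, and for CUP9, at 0.38. The fit called 64.2% of all genes on this difference. The 5 genes were chosen with these values known, so the 3 are a description and no support is drawn from their calls. Each mannose group is 1 library, so the values rest on 1 deletion and 1 wild-type library, and the part played by the depth and composition of the deletion mannose library was not tested.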

How the results depend on the processing

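Of 260 recomputed values of the 5 genes 237 kept their direction and their side of the threshold, 10 no longer passed it, 5 newly passed it and 8 turned sign. These calls describe the dependence on processing only, since the genes were chosen with the values known. The deletion changes kept their sign in every alternative run. With a fixed coefficient of variation of 0.2, chosen after seeing the data, 1491 genes were called in the deletion in glucose, 2820 in the deletion in mannose, 149 for mannose in wild type, 2496 for mannose in the deletion and 818 for the difference. Of the 5 genes 0 were then called for mannose in wild type, 2 for mannose in the deletion and 1 for the difference. Those no longer called were DAL5 in the deletion in glucose (0.65), PTR2 for mannose in wild type (0.62), OPT1 and CUP9 for mannose in the deletion (0.74 and 0.26) and both for the difference (0.73 and 0.38). The wider spread itself is what that alternative changes.

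For mannose in wild type DESeq2 called 1519 genes, and leaving out a library gave 1516 to 2734. Of the 5 genes 2 were called there with upper-quartile factors or GC and length trends removed, and 1 to 2 with a library left out. With upper-quartile factors OPT1 gave −0.0030 and OPT2 −0.40 for mannose in wild type, CUP9 0.0066 for mannose in the deletion, and OPT2 −0.12 and CUP9 0.14 for the difference. That scaling moved the median of all genes from −0.04 to −0.30 for mannose in the deletion, from −0.07 to −0.39 for the deletion in mannose and from −0.08 to −0.32 for the difference. With GC and length trends removed OPT1 gave −0.13 and CUP9 −0.23 for mannose in wild type, and CUP9 0.10 for mannose in the deletion. The cause was not tested.

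With a library left out, mannose in wild type ranged from −0.0415 (without wild-type glucose replicate 2) to 0.0594 for OPT1 (−0.0019 without either deletion glucose replicate) and from −0.43 to −0.35 for OPT2. Mannose in the deletion ranged from −0.66 to 0.24 for OPT2. The difference for PTR2 was 0.05 with upper-quartile factors and 0.09 without GC and length trends, against 0.29 as reported. With a library left out it ranged from 0.19 to 0.32 for PTR2, −0.26 to 0.64 for OPT2 and 0.31 to 0.45 for CUP9, the lowest without wild-type glucose replicate 2.

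The replicate block, on the 4 glucose libraries, gave 2.36 for PTR2, −1.66 for OPT1, −5.00 for OPT2, 0.71 for DAL5 and 1.15 for CUP9 in the deletion, with no call lost. The deviations of same-numbered libraries correlated at −0.046, so the numbers are not shown to pair the samples. Depth limits OPT2 in the deletion, at 6 to 17 counts.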
